A study of Caenorhabditis elegans with 2 samples.

Results

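Autosomal promoters that lay away from short RNA genes held 201 of the 1242 regions in the pooled list of an anti-GFP chromatin immunoprecipitation (ChIP-seq) of tagged SDZ-38 in Caenorhabditis elegans. A region was taken when its summit, the base at which its signal peaked, lay from 1000 bp upstream to 200 bp downstream of the annotated 5′ end of a protein-coding gene on chromosomes I to V. The summit also had to lie more than 250 bp from every tRNA, snRNA, snoRNA, rRNA and miRNA gene. Positions alone chose the 201 regions from the pooled list, and the signal value played no part in that step. The list itself holds only regions with a signal value of 39.0 or more. They made up 26.9% of the 748 autosomal regions (exact 95% interval 23.7% to 30.2%) and 32.5% of the 618 autosomal regions away from short RNA genes (28.8% to 36.4%).

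The animals were hermaphrodites of strain OP543, young adults taken 64 hours after synchronization by bleaching and starvation at the first larval stage. They stably expressed SDZ-38 with a GFP-FLAG tag at its C terminus. Whole worms were sonicated and the labels describe an anti-GFP antibody, although their antibody field reads sdz-38. There were 2 biological replicates of this 1 group, and no library without the tagged protein was analysed here, so signal from SDZ-38 and signal that ChIP gives without the tagged protein cannot be told apart. In whole animals, strong occupancy in few cells and weak occupancy in many cannot be told apart. The promoter that drives the transgene and the cells that make the tagged protein are not stated in the labels.

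As background, sdz-38 takes its name from zygotic expression that depends on SKN-1, and the RefSeq name of its product holds a C2H2-type domain, the mark of a class that includes many DNA-binding zinc finger proteins. Promoters of the worm are compact, and many neighbouring genes are transcribed away from each other out of one shared promoter. Most worm mRNAs are also trans-spliced to a leader RNA, which removes the true start of the transcript, so an annotated 5′ end often lies downstream of where transcription begins. Genes in operons share the promoter of the first gene.

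The sequences at 7 of the 8 autosomal promoter regions that the authors kept in their optimal list are shown first. A place in that list followed pooled signal, as given below, and does not mean that the replicates agreed at each region. Each line gives 101 bases of the forward strand of build ce11, centred on the summit and read from the RefSeq WBcel235 genome. Capitals mark copies, on either strand, of the searched motifs of 6 or more letters that are listed further on. All 101 bases shown for pcrg-1 belong to mrpr-1, which encodes the RNase MRP RNA, and the bases shown for cpl-1 centre on a coding exon.
cpl-1 (chrV:16595202-16595302): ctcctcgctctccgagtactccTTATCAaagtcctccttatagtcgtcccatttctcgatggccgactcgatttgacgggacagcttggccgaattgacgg
Y17D7C.2 (chrV:18720180-18720280): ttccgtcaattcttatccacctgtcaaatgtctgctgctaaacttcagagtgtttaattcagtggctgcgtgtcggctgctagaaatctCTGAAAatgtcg
pcrg-1 (chrII:7200293-7200393): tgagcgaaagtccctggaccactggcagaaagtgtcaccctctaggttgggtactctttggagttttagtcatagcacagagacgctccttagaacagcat
akap-17A (chrIII:7520796-7520896): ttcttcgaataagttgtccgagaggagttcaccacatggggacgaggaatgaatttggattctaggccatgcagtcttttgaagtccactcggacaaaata
hda-11 (chrV:10526072-10526172): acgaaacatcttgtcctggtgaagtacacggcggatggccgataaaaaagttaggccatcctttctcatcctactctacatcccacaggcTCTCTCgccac
ift-43 (chrII:5661349-5661449): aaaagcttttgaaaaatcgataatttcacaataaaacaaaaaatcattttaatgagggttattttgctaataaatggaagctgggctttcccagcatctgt
ubxn-3 (chrII:221170-221270): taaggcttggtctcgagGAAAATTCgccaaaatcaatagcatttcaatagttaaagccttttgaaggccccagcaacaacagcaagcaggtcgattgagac

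The 4 capitalised copies are a reverse TGATAA at cpl-1, a reverse TTTCAG at Y17D7C.2, a reverse GAGAGA at hda-11 and a match to GAANNTTC at ubxn-3. The windows at pcrg-1, akap-17A and ift-43 held no copy of these longer motifs. The ift-43 window was the most AT-rich of the 7, with 29.7% G and C, and the cpl-1 window the least, with 53.5%. The sequence of F56G4.6, the strongest region of the set, is not printed.

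The strongest autosomal promoter region lay on chromosome I at 11374214 to 11374669, with its summit 108 bp upstream of F56G4.6, which encodes a Rod_C domain protein, and inside the window of its head-to-head neighbour wbp-4. Its signal value was 44.7 in replicate 1 and 46.5 in replicate 2, and 92.0 in the pooled list. The signal value is the authors' own score for a region, its scale is not stated, and values of different lists are not on one scale. F56G4.6 ranked 33 among the nuclear regions of replicate 1 and 14 among those of replicate 2, and it was high in both. Only this region and the one at cpl-1 stood among the first 100 of both replicates.

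cpl-1 encodes a cathepsin L-like cysteine protease, a lysosomal enzyme known for its part in yolk processing and embryonic development. Its region (chromosome V, 16595024 to 16595479) had signal values of 37.5 in replicate 1 and 36.8 in replicate 2 and a pooled value of 72.3, with ranks of 79 and 45. Its summit lay 94 bp downstream of the 5′ end, so it was the 1 optimal region of the 8 inside the gene it was assigned to. Y17D7C.2, annotated as an ADP-ribosyl cyclase, followed with 30.4 in replicate 1, 37.1 in replicate 2 and 68.9 in the pooled list, at 243 bp upstream. Its ranks were 308 and 41, so it stood higher in replicate 2.

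The region between pcrg-1, the homolog of the parkin coregulated gene, and E04F6.6 had values of 33.4 in replicate 1, 40.9 in replicate 2 and 66.9 in the pooled list. Its summit lay 206 bp upstream of pcrg-1 and inside mrpr-1 (chromosome II, 7200233 to 7200418). RNase MRP trims ribosomal RNA precursors, and its RNA gene is annotated as ncRNA, a class the distance rule did not name. The region therefore counts as a promoter region by rule although it sits on a gene for a short structural RNA.

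hda-11 encodes a histone deacetylase and stands head to head with xpo-7, which encodes exportin-7, a nuclear transport receptor. The region between them (chromosome V, 10525894 to 10526349) had values of 33.5 in replicate 1, 36.2 in replicate 2 and 65.4 in the pooled list, with ranks of 163 and 46. Its summit lay 62 bp upstream of hda-11. The region 60 bp upstream of akap-17A, an RNA recognition motif gene, also lay in the windows of C07H6.2 and of the DNA ligase IV gene lig-4, and had a pooled value of 65.4 as well. Its replicates differed widely, with 19.9 (rank 3992) in replicate 1 and 40.8 (rank 29) in replicate 2.

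ift-43, a component of the intraflagellar transport machinery that builds cilia, and ubxn-3, a UBX domain protein of the kind that serves the CDC-48 segregase, completed the 8. The ift-43 region had 38.1 in replicate 1, 28.2 in replicate 2 and 64.6 in the pooled list, and the ubxn-3 region had 38.5, 25.9 and 64.0. Both stood higher in replicate 1, with ranks of 72 and 70 there against 191 and 344 in replicate 2. Both summits lay far from the 5′ end, 613 and 553 bp upstream, and that of ift-43 fell in an intron of an annotated gene.

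**Figure D1:**
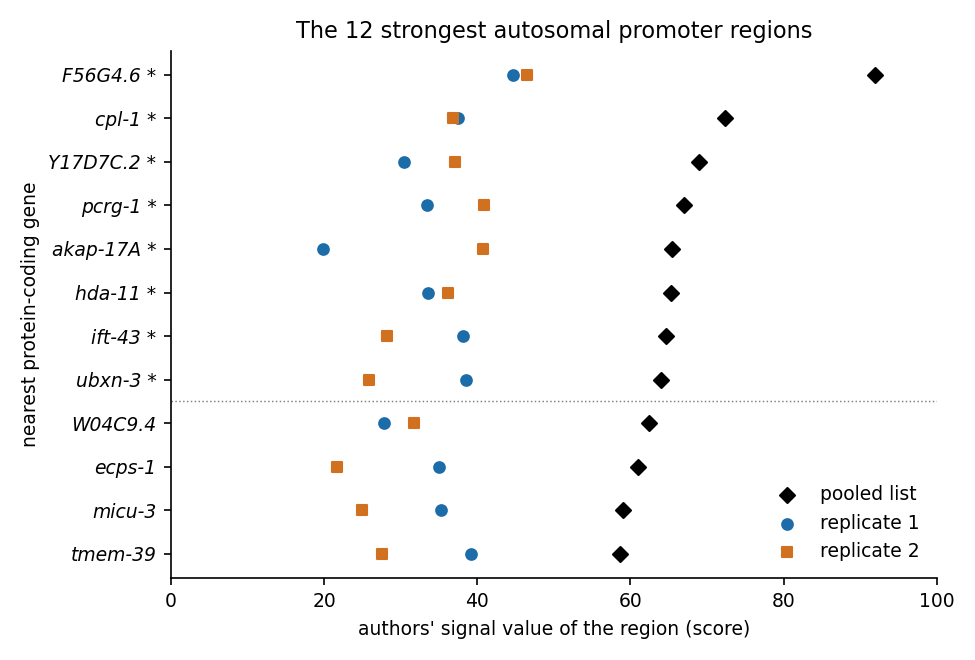
Signal value (score, horizontal axis) of the 12 strongest autosomal promoter regions, named by the nearest protein-coding gene, in the pooled list (diamonds), replicate 1 (circles) and replicate 2 (squares). The 8 regions above the dotted line, marked by asterisks, are in the optimal list, pooled values run from 92.0 at F56G4.6 to 58.6 at tmem-39, and the replicates part most at akap-17A.

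The optimal list held 8 of the 201 autosomal promoter regions, or 3.98% (exact 95% interval 1.73% to 7.69%), against 8.21% of all 1242 pooled regions. That background lies above the upper end of the interval for the promoter regions, and it includes the mitochondrial regions, of which all 21 were in the optimal list, and the regions at short RNA genes. Among other classes away from short RNA genes, the optimal list held 5 of 79 X promoter regions (6.33%, 2.09% to 14.2%) and 7 of 338 autosomal gene-body regions (2.07%, 0.837% to 4.22%). Of the X intergenic regions it held 10 of 124 (8.06%, 3.94% to 14.3%), a larger share than of autosomal promoters. Smaller shares were held of X gene-body regions (4 of 195) and autosomal intergenic regions (3 of 79). It held 29 of the 130 autosomal regions beside short RNA genes (22.3%, 15.5% to 30.4%). The intervals of the classes away from short RNA genes overlapped one another.

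The optimal list was also a cut on pooled signal. Its 102 regions were the 102 strongest of the pooled list, with 62.6 as the weakest value. The strongest autosomal promoter region outside it, at W04C9.4, an uncharacterized gene, had a pooled value of 62.4 and values of 27.8 in replicate 1 and 31.7 in replicate 2. The remaining 193 promoter regions all lay below that weakest optimal value.

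Below W04C9.4 came regions at genes of many kinds. The region between ecps-1, a homolog of the proteasome adaptor ECM29, and atx-2, the ataxin-2 homolog, had 35.0 in replicate 1, 21.7 in replicate 2 and 61.0 in the pooled list. The region between micu-3, an EF-hand gene, and the caveolin gene cav-2 had 35.2, 24.9 and 59.1, and the region 153 bp into tmem-39 had 39.2, 27.5 and 58.6. All 3 stood higher in replicate 1.

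rps-2, a gene for a protein of the small ribosomal subunit, had 31.1 in replicate 1, 25.6 in replicate 2 and 57.6 in the pooled list. Its summit lay inside the ncRNA gene C49H3.15. sec-61.G, a subunit of the channel that passes proteins into the endoplasmic reticulum, had 43.0 in replicate 1 (rank 39) but 20.7 in replicate 2 (rank 1504), and F26G1.1, a VPS35-like endosomal sorting gene, had 39.6 and 23.4. The pattern was turned round at F10E9.5, an uncharacterized gene, with 14.5 in replicate 1 (rank 13703) and 40.7 in replicate 2 (rank 31), and at C49A9.10, with 21.8 and 32.8. C33B4.4 (pooled value 57.4) and the region between Y49F6B.2 and the cuticle collagen gene col-71 (55.8) also stood higher in replicate 2.

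**Figure D2:**
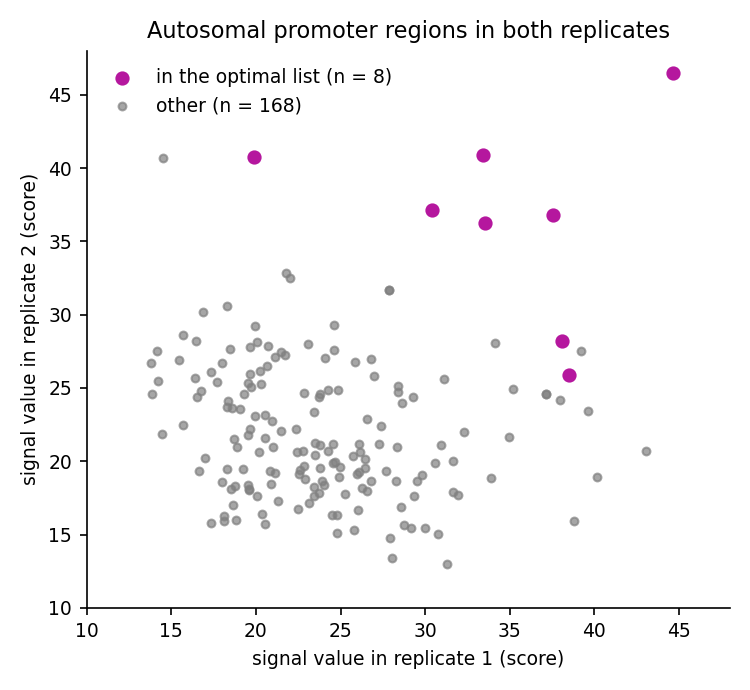
Signal value (score) in replicate 1 (horizontal axis) and replicate 2 (vertical axis) of the 176 autosomal promoter regions that overlapped a region of both replicates, with those in the optimal list as large points and the others as small points. Regions high in both replicates are few, and F56G4.6 stands alone at 44.7 and 46.5.

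Both replicates held an overlapping region at 176 of the 201 autosomal promoter regions (87.6%, exact 95% interval 82.2% to 91.8%), against 88.6% of all pooled regions, so the share was near the background. Replicate 1 alone covered 13 and replicate 2 alone covered 12, and none was without a region in either. An overlap of 1 bp counted, and the lenient lists were long. When a replicate summit within 100 bp of the pooled summit was asked for instead, 139 of the 201 were found in both. The replicate 1 list had 17743 regions over 8.56% of the genome and the replicate 2 list 12648 regions over 5.85%.

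A stricter count asked for a place among the 500 strongest nuclear regions of both replicates. That held for 16 of the 201 (7.96%, 4.62% to 12.6%), against 9.42% of all pooled regions. It held for 7 of the 338 autosomal gene-body regions (2.07%, 0.837% to 4.22%), an interval that ended just below that of the promoter regions, and for 43 of the 130 autosomal regions beside short RNA genes (33.1%, 25.1% to 41.9%). On the X it held for 6 of 79 promoter regions (7.59%, 2.84% to 15.8%) and 17 of 124 intergenic regions (13.7%, 8.19% to 21.04%). It held for 7 of 195 X gene-body regions and 3 of 79 autosomal intergenic regions, both smaller shares than in autosomal promoters. The share in autosomal promoters was thus not particular to them. Regions at kin-14 and at ift-43 share their replicate regions, so they are not separate observations among the 16. The narrow gap to the autosomal gene-body interval can therefore not be read as a difference. The 16 regions had 14 nearest genes between them. They were 7 of the 8 optimal regions, all but akap-17A, and the regions at micu-3, tmem-39, rps-2, sor-1, wwp-1 and gsp-1, 2 regions at kin-14 and a second region at ift-43.

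Among these, gsp-1, a protein phosphatase 1 catalytic subunit, had 34.1 in replicate 1, 28.1 in replicate 2 and 47.8 in the pooled list. sor-1, a worm gene that keeps Hox genes silent, had 28.4, 24.7 and 53.4, and wwp-1, an E3 ubiquitin ligase, had 28.4, 25.1 and 51.8. The summit at gsp-1 lay inside the ncRNA gene F29F11.8 and that at wwp-1 lay 4 bp from the ncRNA gene Y65B4BR.10. kin-14, a tyrosine kinase gene, had 2 regions with pooled values of 55.8 and 44.3 that overlapped the same region of each replicate, with 37.2 in replicate 1 and 24.6 in replicate 2. A further kin-14 region had a pooled value of 39.1 and 27.8 in replicate 2, with no region in replicate 1. The 2 ift-43 regions likewise shared their replicate regions, and so did a pair at W04C9.4, so each pair is 1 observation in the replicates.

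Across the 201 the signal values stayed in a narrow band, bounded from below by the floor of the pooled list. They ran from 39.1 to 92.0 in the pooled list, with a median of 43.9 and quartiles of 40.9 and 48.6. Where a replicate had a region, the values ran from 13.8 to 44.7 with a median of 23.9 in replicate 1 and from 13.0 to 46.5 with a median of 21.6 in replicate 2. The pooled value was close to the sum of the values in the replicates, with a median ratio of 1.01 over the 176 regions found in both (lowest 0.595, highest 1.23). The median rank was 1470 in replicate 1 and 1166.5 in replicate 2, and the worst ranks were 15898 and 12047.

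Few of the regions ranked high in both replicates. In replicate 1, 14 regions stood among the first 100, and in replicate 2 it was 13, or 25 in all with 2 in both. Counts in this paragraph are of pooled regions, so pairs that share a replicate region count each of their regions. Such pairs lay at kin-14 and ift-43 among the 14, and at W04C9.4 among the 13. Of these 25, 5 ranked below 5000 in the other replicate or were absent from it. They were F10E9.5, the cytochrome P450 gene cyp-33C8 (38.8 in replicate 1, 15.9 in replicate 2), T05D4.2 (36.5 in replicate 1 and no region in replicate 2), F13A7.14 (no region in replicate 1, 36.1 in replicate 2) and the cohesin loader gene scc-2 (no region in replicate 1, 31.1 in replicate 2). Only 27 of the 201 ranked in the first 1000 of both. Shares over all pooled regions were not counted for these ranks, so the counts cannot be read as a trait of promoter regions. For the 500 strongest of both replicates the share was near the background, 7.96% against 9.42% of all pooled regions. Spearman's rho of the replicates' values was −0.11 over the 176 regions, a description only, since these regions share libraries and were kept for a high pooled value, which sets a floor under the sum.

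**Figure D3:**
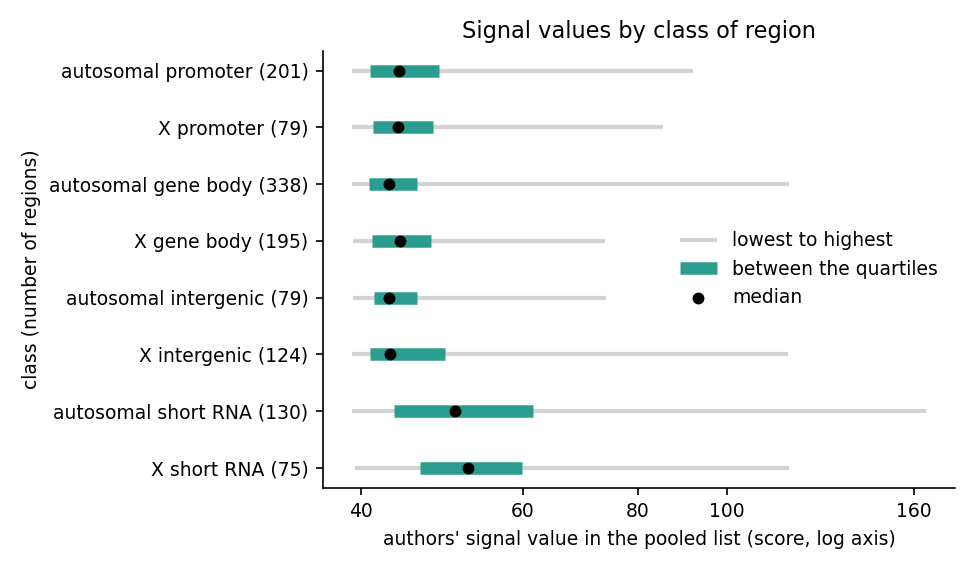
Pooled signal value (score, log axis) by class of region, with the number of regions in parentheses. Points mark medians, thick bars the span between the quartiles and thin lines the lowest to the highest value, and the 6 classes away from short RNA genes have medians between 42.9 and 44.1, against 50.5 and 52.3 beside short RNA genes.

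Set beside the other classes, the autosomal promoter regions had a median pooled value of 43.9, against 43.8 for X promoters, 42.9 for autosomal gene bodies and 42.9 for autosomal intergenic regions. The differences between these medians were smaller than the distance between the quartiles of any of the 4 classes. All nuclear classes share the floor of the pooled list, with lowest values from 39.0 to 39.4, which limits how low a median can fall. Regions beside short RNA genes stood apart, with a median of 50.5 on autosomes and an upper quartile of 61.5 there. The upper quartile was 48.6 for autosomal promoters, against 47.8 for X promoters, 45.9 for autosomal and 47.6 for X gene bodies, and 45.9 for autosomal and 49.4 for X intergenic regions. A high upper quartile was thus not particular to autosomal promoters, and the single highest value away from short RNA genes on an autosome, 117, was in a gene body.

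Among autosomal regions away from short RNA genes, the share in promoters was highest in the first 100 places of the pooled list. There, 23 of the 46 such regions lay in a promoter (50.0%, exact 95% interval 34.9% to 65.1%). The share was 111 of 348 (31.9%, 27.0% to 37.1%) in places 101 to 500 and 67 of 224 (29.9%, 24.0% to 36.4%) in places 501 to 748. Promoter windows took up 22.3% of the autosomal bases away from short RNA genes, a value below all 3 intervals. Among optimal regions of that kind it was 8 of 18 (44.4%, 21.5% to 69.2%), an interval that includes the share of bases. With regions beside short RNA genes kept in the total, the order was different, with 23.0% in the first 100 places, 27.8% in places 101 to 500 and 27.0% in places 501 to 748.

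In the replicates the share in the first 100 places was close to that in places 101 to 500, unlike in the pooled list. In replicate 1 the share was 29.5% in the first 100 autosomal places (18.5% to 42.6%), 28.1% in places 101 to 500 (23.4% to 33.1%) and 25.0% in places 501 to 1000 (21.2% to 29.1%). In replicate 2 it was 34.5% (22.5% to 48.1%), 34.6% (29.6% to 39.9%) and 26.8% (22.9% to 31.1%). All 3 intervals of replicate 2 lay above 22.3%, and in replicate 1 that for places 101 to 500 did, while the other two included it. With regions beside short RNA genes kept in the total, promoters took 18 of the first 100 and 98 of the next 400 places in replicate 1, and 20 and 119 in replicate 2. Over the whole lists, again away from short RNA genes, the share was 24.1% (23.3% to 24.8%) in replicate 1 and 24.9% (24.0% to 25.8%) in replicate 2.

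**Figure D4:**
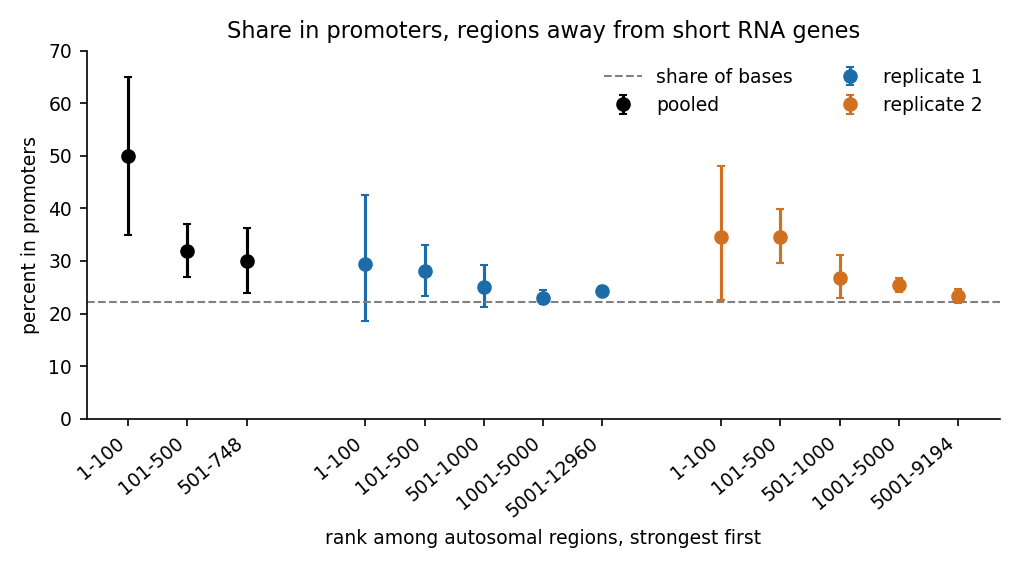
Percent of autosomal regions away from short RNA genes whose summit lies in a promoter (vertical axis), by rank among autosomal regions from the strongest on, in the pooled list, replicate 1 and replicate 2. Points are shares, bars exact 95% intervals, and the dashed line the 22.3% of bases, with 50.0% in the first 100 places of the pooled list as the highest share.

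Summits upstream of the annotated 5′ end numbered 160 of 201 (79.6%, exact 95% interval 73.4% to 84.9%), against 81.3% of the bases the rule could take, so their number was near the background. The median distance was 258 bp upstream, with quartiles of 542 and 40 bp upstream. The stretch from 250 to 101 bp upstream held 37 summits (18.4%, 13.3% to 24.5%), against 13.1% of the bases the rule could take, and its interval lay just above that share. The 37 include the pcrg-1 summit inside mrpr-1. The most distant stretch, 1000 to 751 bp upstream, held 27 (13.4%, 9.04% to 18.9%), against 19.2% of the bases, and its interval lay just below. The 16 summits from 0 to 100 bp downstream (7.96% against 9.43% of bases) and the 25 from 101 to 200 bp downstream (12.4% against 9.31%) had intervals that included the share of bases. Regions from 500 to 251 bp upstream had the highest median pooled value, 46.0, and those from 0 to 100 bp downstream the lowest, 42.1.

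**Figure D5:**
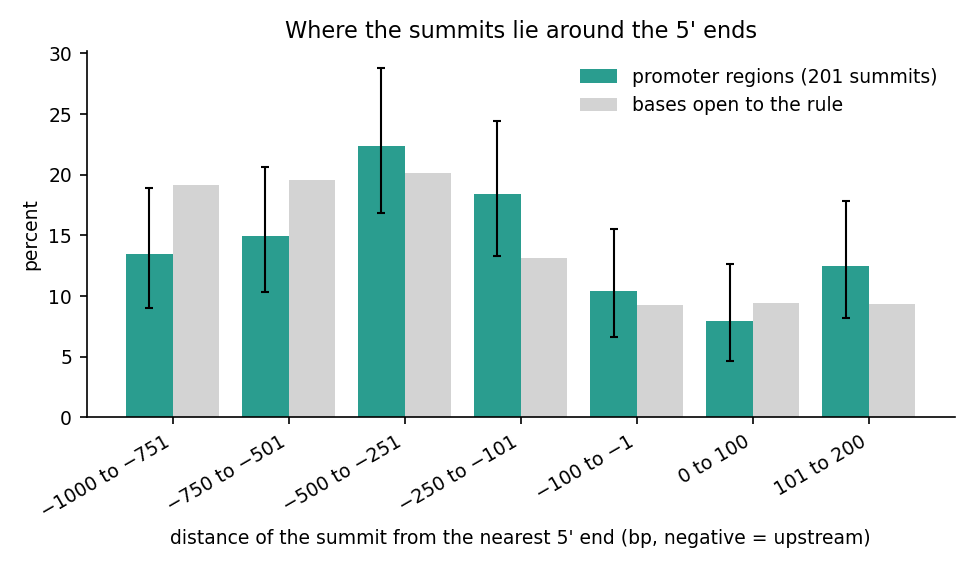
Percent of the 201 summits (dark bars, with exact 95% intervals) and of the bases the rule could take (pale bars) by distance from the nearest annotated 5′ end in bp, negative upstream. Summits exceed the bases most from 250 to 101 bp upstream, 18.4% against 13.1%.

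Promoters shared by neighbouring genes were frequent. The summit lay in the windows of more than 1 gene in 52 of the 201 (25.9%, 19.97% to 32.5%), against 11.9% of the bases the rule could take. It lay in the windows of genes that point away from each other in 44 (21.9%, 16.4% to 28.3%), against 10.6% of the bases. Both intervals lay above the share of bases. Of the 8 optimal regions 4 were of this head-to-head kind, those at F56G4.6, pcrg-1, akap-17A and hda-11, and the median pooled value of the 44 was 45.5. Further examples were ecps-1 with atx-2, micu-3 with cav-2, jmjd-1.2 with F29B9.11, and C47E8.4 with hsp-90.

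By annotated feature, 115 summits lay between genes (57.2%, 50.1% to 64.2%, against 56.1% of bases), 53 in coding exons (26.4%, 20.4% to 33.0%, against 22.9%) and 20 in UTR exons (9.95%, 6.18% to 14.9%, against 8.14%). Introns held 13 (6.47%, 3.49% to 10.8%), against 12.9% of bases, the 1 feature whose interval excluded the share of bases. Between genes here means outside protein-coding genes, so it takes in summits inside ncRNA genes, such as that at pcrg-1 inside mrpr-1. Regions between genes in this sense had the highest median pooled value, 45.2, and held 6 of the 8 optimal regions. Chromosome II held 49 regions, V 51, IV 35, III 34 and I 32. Each share had an interval that included the chromosome's share of autosomal protein-coding genes. With each chromosome divided into 3 equal stretches, the central ones held 94 (46.8%, 39.7% to 53.9%), against 37.7% of the bases the rule could take.

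The 201 regions fell in the windows of 252 of the 17241 autosomal protein-coding genes (1.46%, exact 95% interval 1.29% to 1.65%). The gene lists were drawn up by gene name, so a gene of like function under another name is in none of them. Genes of the translation machinery were represented by 5 of the 76 cytosolic ribosomal protein genes (6.58%, 2.17% to 14.7%), rps-2, rpl-3, rpl-15, rpl-23A.2 and rpl-22. rpl-3 had 16.4 in replicate 1 (rank 8970) and 28.2 in replicate 2 (rank 186), and rpl-15 had 30.9 (rank 276) and 21.1 (rank 1359). rpl-23A.2 had 18.3 and 19.5, and the rpl-22 region, whose nearest 5′ end is that of ify-1, had 18.6 and 17.0. The 5 did not stand together near the top of either list. Among the 1242 strongest regions of each replicate, autosomal promoter regions took in 2 of the 76 genes in replicate 1 and 4 in replicate 2, against 217 (1.26%) and 260 (1.51%) of the 17241 genes. Translation factors and aminoacyl-tRNA synthetases had 1 of 69, eef-1B.1, and mitochondrial ribosomal proteins 1 of 71, mrpl-18.

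Of 85 genes for chromatin and histone modification, 3 had a region in their window. They were hda-11, set-2, which methylates histone H3 on lysine 4 (25.9 in replicate 1, 26.8 in replicate 2, 55.5 pooled), and the histone demethylase gene jmjd-1.2 (29.5, 18.6 and 49.2). The 3 genes make 3.53% (0.734% to 9.97%), an interval that includes the 1.46% of all autosomal genes. The histones themselves had 4 of 77 (5.19%, 1.43% to 12.8%), from only 2 regions at his-59 with his-60 and at his-62 with his-61. These had 31.0 and 27.6 in replicate 1 and no region in replicate 2, and 65.0% and 69.2% of their 31-base words occurred once in the genome.

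Among regulators of transcription, 4 of 246 nuclear hormone receptor genes (1.63%) had a region, nhr-142 (43.9 pooled), nhr-89 and nhr-169 from one shared region (43.0) and nhr-82 (39.6). The TFIID subunit gene taf-4 had 38.0 in replicate 1 (rank 74), 24.1 in replicate 2 (rank 574) and 45.2 in the pooled list, and it was 1 of 59 in the list of RNA polymerases and mediator. hlh-30, the worm homolog of the lysosome and autophagy regulator TFEB, was 1 of 154 in the list of transcription factors by name class, with 24.8, 16.3 and 44.3. Genes with transcription factor domains outside that list also had regions, among them the homeobox gene unc-39 (52.8 pooled), the bZIP genes F13A7.14 (51.6) and Y17G7B.21 (51.4) and the nuclear factor I gene nfi-1 (39.8). Of the 40 autosomal genes of the SKN-1 endomesoderm network and the sdz group, 0 had a region, and an exact interval on 0 of 40 reaches 8.81%. The 1242 strongest regions of each replicate also gave 0 of the 40.

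Among sensory, immune and germline genes, chemoreceptors had 5 of 1333 (0.375%, 0.122% to 0.873%), an interval below the 1.46% of all autosomal genes. They were sri-5, srbc-58, str-39, srw-3 and srw-63. The 1242 strongest regions gave 12 in replicate 1 (0.900%, against 1.26% of all autosomal genes) and 2 in replicate 2 (0.150%, against 1.51%). The count for chemoreceptors thus differed between the replicates, and the lower share was marked mainly in replicate 2. Innate immunity effectors had 1 of 328 (0.305%, 0.00772% to 1.69%), abf-2, and germline and small RNA genes 4 of 115 (3.48%, 0.956% to 8.67%), rde-8, mex-1, syp-4 and ppw-1. By name list, neuropeptides and insulins had 0 of 111, proteasome and ubiquitin 0 of 79, major sperm proteins 0 of 44 and vitellogenins with their receptor 0 of 2. Outside these lists, regions lay at tag-267, annotated as a major sperm protein (46.1 pooled), at the ubiquitin genes wwp-1, eel-1 (43.8) and ufd-3 (40.7), and at the proteasome adaptor gene ecps-1.

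The other lists had between 1 and 4 genes each. Detoxification enzymes had 4 of 209 (gst-8, cyp-33C8, gsto-3 and cyp-33C1), mRNA splicing and processing 2 of 83 (uaf-2 and lsm-8), mitochondrial respiration 2 of 72 (atp-5 and cox-11), collagens 2 of 145 (col-71 and col-34) and nuclear pore and transport 2 of 47 (xpo-7 and npp-13). Heat shock proteins and chaperones had 1 of 58, hsp-90, whose region shared with C47E8.4 had 40.2 in replicate 1, 18.9 in replicate 2 and 54.3 in the pooled list. Kinases and phosphatases had 1 of 55 (kin-14), cytoskeleton and motors 1 of 64 (klp-18) and proteases of the intestine and lysosome 1 of 24 (cpl-1). Each of these intervals included 1.46%.

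The windows of 201 bp around the promoter summits were richer in G and C than promoters at large. They averaged 40.1% ± 6.46 (SD over 201 regions), against 34.2% ± 6.55 (SD over 17241 promoters) for windows of the same length centred 258 bp upstream of every autosomal protein-coding gene. The positions are not matched, since 41 of the 201 summits lay at or downstream of the 5′ end and 53 in coding exons. What this adds to the difference was not tested, and the motif shares of all promoters given below come from the same fixed windows. Gene-body regions on autosomes averaged 42.7% ± 7.39 (SD over 338 regions) and X promoter regions 43.2% ± 7.62 (SD over 79 regions). The GC content of these other regions was thus as high or higher. Its part in the motif shares was not tested.

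Both strands of these windows were searched for 10 motifs. They were TGATAA (the site of GATA factors), ATCAT with its variant form GTCAT (cores of the SKN-1 site), TATAAA (the TATA box), CACGTG (the E-box), GAGAGA (a purine repeat), TTTCAG (the splice acceptor), GCGCCA (searched because earlier results of these data named it), GAANNTTC (a heat shock element) and GGCGGG (the GC box). ATCAT on one strand can overlap TGATAA on the opposite strand. ATCAT was present in 36.3% of the promoter region windows (29.7% to 43.4%), against 39.7% of all autosomal promoter windows, and GTCAT in 30.8% (24.5% to 37.7%), against 25.5%. TGATAA was present in 14.9% (10.3% to 20.6%), against 20.1%, and TATAAA in 21.4% (15.9% to 27.7%), against 24.4%. All 4 intervals included the share of all promoters.

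GCGCCA was present in 14 of the 201 windows (6.97%, 3.86% to 11.4%), against 3.74% of all autosomal promoter windows, which lies just below the interval, and 4.73% of autosomal gene-body windows, which lies in it. As earlier results of these data led to its choice, its share is not independent of them. GAANNTTC was present in 15.9% (11.2% to 21.7%), against 14.4%, and in 4 of the 8 optimal windows (15.7% to 84.3%). GAGAGA was present in 14.4% (9.88% to 20.1%), against 12.3%, and in 25.3% of X promoter windows (16.2% to 36.4%). TTTCAG was present in 37.3% (30.6% to 44.4%), against 33.6%, CACGTG in 2.49% (0.813% to 5.71%), against 3.14%, and GGCGGG in 2.99% (1.10% to 6.38%), against 3.85%. A match of letters is not a binding site, and GCGCCA, as well as the E-box and the GC box, was in 0 of the 8 optimal windows.

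RNA genes that the distance rule did not name lay within 250 bp of 15 of the 201 summits, ncRNA genes at 12 and piRNA genes at 3. The share of bases open to the rule that lie so near such genes was not counted, so 15 cannot be called high or low. The summit was inside the ncRNA gene in 6, those at pcrg-1 (mrpr-1), rps-2, gsp-1, T05B11.7, Y41C4A.22 and F58E6.11. T05B11.7 had 18.5 in replicate 1 and 27.7 in replicate 2, Y41C4A.22 had 28.3 and 18.6, and F58E6.11 had 18.3 and 23.7. Of the 201 regions, 178 consisted of 31-base words that each occur once in the genome. In 6 regions fewer than 90% did, those at mog-4 (59.6%), C09E7.7 (57.7%), his-59, eel-1 (36.9%), fbxa-24 (50.2%) and his-62, and the part of repeated sequence in their signal was not tested. The same held for 16 of the 338 autosomal gene-body regions and 4 of the 79 X promoter regions.

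The bounds of the rule cut through a continuous set of regions. Just inside the upstream bound were nemt-1 at 989 bp (pooled value 43.0), the second ift-43 region at 987 bp (39.4) and F33E2.10 at 975 bp (44.5). Just outside it were sac-2 at 1033 bp (41.3), dhs-8 at 1051 bp (63.4) and eif-3.G at 1060 bp (66.9), of which the last pair have values above the weakest optimal one. At the downstream bound his-59 at 198 bp (44.7), Y57G11C.33 at 195 bp (42.6) and rpl-23A.2 at 194 bp (40.7) were inside, and R11A5.6 at 258 bp (58.7), exo-1 at 265 bp (42.5) and thum-1 at 269 bp (43.2) were outside. Nearest to a short RNA gene while inside were H27M09.5 at 298 bp (40.1), cdc-48.1 at 482 bp (39.4) and rpl-15 at 558 bp (50.3), and nearest while outside were Y38E10A.22 at 214 bp (68.1), Y43B11AR.3 at 212 bp (42.5) and Y75B8A.23 at 202 bp (41.3).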

How the data were processed

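ChIP-seq of 2 biological replicates of 1 group was analysed from lists of regions in narrowPeak layout, build ce11. Per the labels' file notes, the authors made a lenient list for each replicate from its alignment and 1 control alignment, a pooled list from both, and an optimal list by the irreproducible discovery rate procedure. The signal value is the authors' deposited score, used here to rank and describe regions within a list. The aligner, the caller and the thresholds were not given in the sources used here. The depth behind each region is unknown, and the ce10 lists were not used.

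Summits were assigned with the RefSeq WBcel235 annotation, in which all ce11 region ends lay within the chromosomes. A replicate supported a region by an overlap of 1 bp, and ranks are among nuclear regions of that list. With 1 group no test between conditions exists, and regions are not replicates. Shares are therefore given with exact Clopper-Pearson 95% intervals, which cover counting error only. A gene had a region when a summit lay in its promoter window. For the gene lists, the 1242 strongest regions of each replicate, as many as the pooled list holds, were counted beside the pooled ones. The placement of summits was checked against a brute-force search on simulated positions. Python 3.11.15, pandas 2.3.3, numpy 2.4.6, scipy 1.17.1 and matplotlib 3.10.9 were used.

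The set of regions, the 25 gene lists and the 10 motifs were chosen with earlier results of these data known. Named are the nearest genes of optimal regions, of the 20 strongest (1 of them is not reported here), of those among the 500 strongest of both replicates, of up to 3 regions per gene list and of 3 regions on each side of each bound. Genes named as members of small counts were added after their values were seen.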

Additional observations from a re-analysis of the deposited data

How the results depend on the processing

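Of 43 values recomputed under 11 alternative settings, 35 stayed within the spread between replicates or within 1.5 times the count, and 8 moved. The median distance was 138 bp upstream (−138) with windows of 500 bp upstream, and 352.5 bp upstream (−352.5) with no bases downstream. The stronger part of the pooled list held 99 regions, 95 of them found in both replicates, with a median value of 48.7. Leaving out a replicate, and taking the strongest regions of the other, gave medians of 24.1 to 27.0 on that replicate's own scale, median distances of −260 to −238.5 and 185 to 216 promoter regions. Under the other settings the set held 144 to 224 regions, 6 to 9 of them optimal and 125 to 197 found in both replicates. The last range mixes sets of different sizes. For the same 201 regions, asking for a replicate summit within 100 bp of the pooled summit gave 139 found in both, against 176 by overlap. With regions within 250 bp of an ncRNA gene also left out, an alternative chosen after seeing the data, 189 regions remained by count, 7 of them optimal and 164 found in both, with a median value of 43.8. No paired analysis was possible because the labels give 1 group. The depth behind the regions is unknown, the score has no stated scale, no untagged library is analysed here, and regions of a library are not independent, so the intervals are too narrow as measures of biological spread.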
